A study of Mus musculus with 24 samples.

Results

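Otx2, Lhx2, Pax6, Fezf1, Insm1, Neurog1, Neurod1, Fezf2 and Emx2 are transcription factor genes of the olfactory placode and of early neurons, and their RNA levels were examined in the jaws of mouse embryos. These 9 genes were taken by symbol from the array annotation, which gave them 16 probe sets. Where a gene had several, the brightest probe set by its mean on the 24 arrays stood for it. They are 9 of 18193 annotated genes, and all 9 were among the 13942 genes that passed a filter on low levels and were tested. The mutant embryos came from Wnt1cre;Alk5fl/+ mice mated with Alk5fl/fl mice on a C57B6 background and were collected at embryonic day 14.5. Alk5 is the type I TGF-beta receptor whose gene symbol is Tgfbr1. Wnt1-Cre removes it in the cranial neural crest, the lineage of most facial bone and connective tissue, while the nasal and oral epithelia do not descend from that lineage. Mutants were picked by their cleft palate and calvarial defect, and the controls were littermates whose own alleles the labels do not give. By the cross, every embryo carried at least 1 floxed Alk5 allele. Genotype, jaw (maxilla or mandible) and end (distal or proximal) gave 8 groups of 3 arrays: mutant distal maxilla, mutant proximal maxilla, mutant distal mandible and mutant proximal mandible, and the 4 matching control groups. The labels leave unsaid whether the 3 arrays per group are separate embryos, so p-values measure the spread between these arrays, which may be partly technical.

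The olfactory epithelium forms from the nasal placode, a thickening of the head ectoderm that lies against the developing maxilla. Pax6, Otx2, Lhx2 and Emx2 are homeobox factors of the placode and its epithelium as well as of the forebrain. In the epithelium, progenitors switch on the bHLH factor Neurog1 and the zinc finger factor Insm1, then the bHLH factor Neurod1 as they leave the cell cycle, and become receptor neurons whose axons grow to the olfactory bulb. Fezf1 and Fezf2 are related zinc finger repressors required for olfactory development in the mouse, and Fezf2 is also a determinant of deep-layer neurons of the cortex.

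Promoter sequence is given for Otx2 and Neurod1, which were high in the maxilla and under the filter in the mandible. Both hold a bHLH motif before their first annotated start. Pax6 shared that pattern but held an E-box (CAAATG at -20) only before another start, and is not printed. Emx2 and Fezf2 are given as the genes called between genotypes. RefSeq promoters of mouse build GRCm38.p6 were matched for 8 of the 9 genes. The windows below are the 250 bases before the start, 5′ to 3′ on the strand of the gene, with the E-box CANNTG and the homeodomain core TAATTA in capitals. They are chr14:48667645-48667894 on the minus strand for the first of 4 annotated starts of Otx2, chr2:79456637-79456886 on the minus strand for Neurod1, chr19:59458440-59458689 on the plus strand for Emx2, and chr14:12345866-12346115 on the minus strand for Fezf2.
Otx2: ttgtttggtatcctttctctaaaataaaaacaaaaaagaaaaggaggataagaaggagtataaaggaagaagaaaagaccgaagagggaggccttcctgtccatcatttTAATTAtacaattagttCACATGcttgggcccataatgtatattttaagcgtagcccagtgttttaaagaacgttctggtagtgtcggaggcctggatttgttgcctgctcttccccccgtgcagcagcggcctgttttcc
Neurod1: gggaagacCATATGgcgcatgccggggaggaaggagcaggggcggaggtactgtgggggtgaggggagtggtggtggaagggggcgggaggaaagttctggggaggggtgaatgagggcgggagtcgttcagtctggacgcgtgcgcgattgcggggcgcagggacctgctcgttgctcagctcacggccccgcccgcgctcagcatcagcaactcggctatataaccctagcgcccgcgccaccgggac
Emx2: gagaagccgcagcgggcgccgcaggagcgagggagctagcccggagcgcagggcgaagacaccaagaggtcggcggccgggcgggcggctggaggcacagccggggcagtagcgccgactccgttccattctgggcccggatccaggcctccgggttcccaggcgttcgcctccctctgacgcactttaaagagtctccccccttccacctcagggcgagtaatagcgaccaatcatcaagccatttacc
Fezf2: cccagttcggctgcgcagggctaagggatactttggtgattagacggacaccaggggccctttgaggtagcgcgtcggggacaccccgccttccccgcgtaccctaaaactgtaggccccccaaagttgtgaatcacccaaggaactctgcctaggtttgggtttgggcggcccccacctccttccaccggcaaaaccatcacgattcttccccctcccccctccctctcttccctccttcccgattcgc
Counted back from the base before the start as -1, the Otx2 window held the E-box CACATG at -124 and TAATTA at -141. The Neurod1 window held the E-box CATATG at -242 and the SMAD box CAGAC, searched on both strands, at -119 on the opposite strand. The Emx2 and Fezf2 windows held none of these motifs, with 67.2% and 61.2% G and C, against 42.0% in the Otx2 window. An E-box was present in 66.2% of 32851 RefSeq promoter windows of this length, CAGAC in 42.2% and TAATTA in 4.84%. The E-box and CAGAC are thus common in promoters, and a match is a description of the letters only.

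Signals were log2 RMA values, and levels under 6.33 to 6.47, the 40th percentile of the arrays, were read as background. Where the lower group mean lay under it, the size of a change is a lower limit and no fold is given. Where both group means did, or where such changes are subtracted from one another, the size is uncertain. The labels name each compartment as bone, and 4 bone genes averaged 9.19 to 12.73 on the 24 arrays. Hand2, a factor of the mandibular arch, lay at 9.55 to 13.09 in the 12 mandible arrays and at 5.11 to 7.38 in the 12 maxilla arrays, so every array matched its labelled jaw by this gene. Of the 24 arrays, 22 correlated best with their own group. Mutant proximal maxilla replicate 3 had a mean r of 0.9851 with its own group and 0.9902 with the mutant proximal mandible, and mutant distal maxilla replicate 3 had 0.9867 with its own group and 0.9878 with the control distal maxilla. Results of the mutant maxilla are therefore given with and without these 2 arrays. Replicates 1 and 3 of the mutants had both Xist (11.15 to 12.79) and genes of the Y chromosome (8.51 to 10.01) on their arrays, whereas mutant replicate 2 and control replicate 1 had Xist without those genes and control replicates 2 and 3 had those genes with Xist at 6.23 to 7.49. Tgfbr1 itself averaged 0.26 ± 0.04 (SE) higher in mutants over the 4 regions (limma adjusted p = 0.000146). Whether its probes lie in the deleted part is not given in the sources used here, so its level checks no label.

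Between the jaws, 6 of the 9 genes formed 1 pattern: Otx2, Lhx2, Pax6, Insm1, Neurod1 and Fezf1 were high in the maxilla and near or under the filter in the mandible, in both ends and both genotypes. Otx2 had 10.12, 10.46 and 7.83 in the mutant distal maxilla (replicates 1 to 3, as throughout) and 9.66, 9.82 and 8.99 in the control distal maxilla. In the proximal maxilla it had 9.76, 10.08 and 4.26 in mutants and 10.36, 10.11 and 10.74 in controls. All 12 mandible arrays lay between 4.10 and 4.46, and 1 maxilla array, mutant proximal replicate 3, lay within that range. In controls the maxilla exceeded the mandible by 5.22 ± 0.95 log2 units (SE) in the distal end (limma adjusted p = 0.000794) and by 6.11 ± 0.95 in the proximal end (limma adjusted p = 0.000107). In bulk tissue, fewer cells of a type and less RNA per cell cannot be told apart, here and in every result that follows.

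Lhx2, a LIM homeobox factor needed for olfactory receptor neurons to mature, had 10.62, 10.88 and 9.02 in the mutant distal maxilla and 9.93, 10.38 and 9.70 in the control distal maxilla. It had 10.37, 10.66 and 7.81 in the mutant proximal maxilla and 10.90, 10.81 and 11.20 in the control proximal maxilla, against 4.89 to 6.26 in the mandible, so the jaws lay apart on every array. The control difference was 4.78 ± 0.54 in the distal end (limma adjusted p = 5.73e-06) and 5.61 ± 0.54 in the proximal end (limma adjusted p = 1.19e-06). Pax6, the paired-box factor that specifies lens and nasal placodes, had 8.80, 9.01 and 7.44 in the mutant distal maxilla and 8.01, 8.49 and 6.83 in the control distal maxilla. It had 8.93, 9.19 and 7.20 in the mutant proximal maxilla and 9.32, 9.47 and 9.54 in the control proximal maxilla. Its mandible arrays lay at 5.29 to 5.86, below all maxilla arrays, with control differences of 2.33 ± 0.44 in the distal end and 3.84 ± 0.44 in the proximal end (limma adjusted p = 0.00116 and 7.01e-06). Of the 4 other probe sets of Pax6, 2 followed this pattern over the 24 arrays (r = 0.957 and 0.858) and 2 did not (r = 0.12 and -0.212).

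The neurogenic genes showed the same order of the jaws. Insm1 had 10.83, 11.27 and 8.54 in the mutant distal maxilla and 10.38, 10.51 and 9.64 in the control distal maxilla. It had 10.73, 10.94 and 6.43 in the mutant proximal maxilla and 11.32, 11.03 and 11.36 in the control proximal maxilla. In the mandible it lay between 5.45 and 6.76, and of the maxilla arrays only mutant proximal replicate 3 lay within that range. Neurod1 had 10.41, 10.87 and 8.51 in the mutant distal maxilla and 9.17, 10.01 and 8.51 in the control distal maxilla. It had 10.73, 10.50 and 5.43 in the mutant proximal maxilla and 10.92, 10.68 and 10.99 in the control proximal maxilla. Its mandible arrays lay at 4.75 to 5.78, again with that 1 maxilla array among them. In the control proximal end the jaws differed by 5.58 ± 0.80 for Insm1 (limma adjusted p = 4.72e-05) and by 5.62 ± 0.89 for Neurod1 (limma adjusted p = 0.000125), and in the control distal end by 4.62 ± 0.80 and 3.85 ± 0.89 (limma adjusted p = 0.000476 and 0.005). The other probe set of each gene followed the first closely, with r = 0.991 for Insm1 and 0.995 for Neurod1.

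Neurog1, which acts before Neurod1 in the placodal neuron lineage, depended on the probe set. The one with the higher mean lay at 6.37 to 7.11 on all 24 arrays, and its control jaw differences of 0.21 and 0.23 in the distal and proximal end did not pass the test. The other probe set of Neurog1 gave 9.04, 9.55 and 6.40 in the mutant distal maxilla and 7.62, 8.79 and 6.50 in the control distal maxilla. It gave 9.18, 9.18 and 4.24 in the mutant proximal maxilla, 9.29, 9.64 and 9.88 in the control proximal maxilla and 4.10 to 4.66 in the mandible. With it the maxilla was higher in all 4 comparisons, by 3.80 in the mutant distal end, 3.21 in the mutant proximal end, 3.24 in the control distal end and 5.25 in the control proximal end (limma adjusted p = 0.0121, 0.0483, 0.0196 and 0.000337). That probe set was looked at after the first had been seen to be nearly flat, and the files do not say which of the pair is the better measure of the transcript.

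Fezf1 had 8.88, 10.32 and 8.74 in the mutant distal maxilla and 10.28, 10.10 and 10.17 in the control distal maxilla. It had 9.34, 9.31 and 5.42 in the mutant proximal maxilla and 9.96, 9.41 and 10.35 in the control proximal maxilla, against 4.92 to 5.62 in the mandible, a range that again held mutant proximal maxilla replicate 3. The control difference was 4.99 ± 0.66 in the distal end and 4.61 ± 0.66 in the proximal end (limma adjusted p = 3.56e-05 and 4.95e-05). Fezf2 behaved otherwise. It lay at 4.54 to 6.01 in the control maxilla, at 4.68 to 5.61 in the mandible of both genotypes and at 4.94 to 5.25 in the mutant proximal maxilla, all under the filter. Only the mutant distal maxilla, with 6.64, 7.83 and 7.05, was above it, and Fezf2 passed the filter through those 3 arrays alone. Every test of Fezf2 that involves the mutant distal maxilla therefore uses the values that admitted it. Such results are given as values of Fezf2 and not read against the share of all genes, with the adjusted p of a fit to all 18193 genes without the filter beside them.

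**Figure D1:**
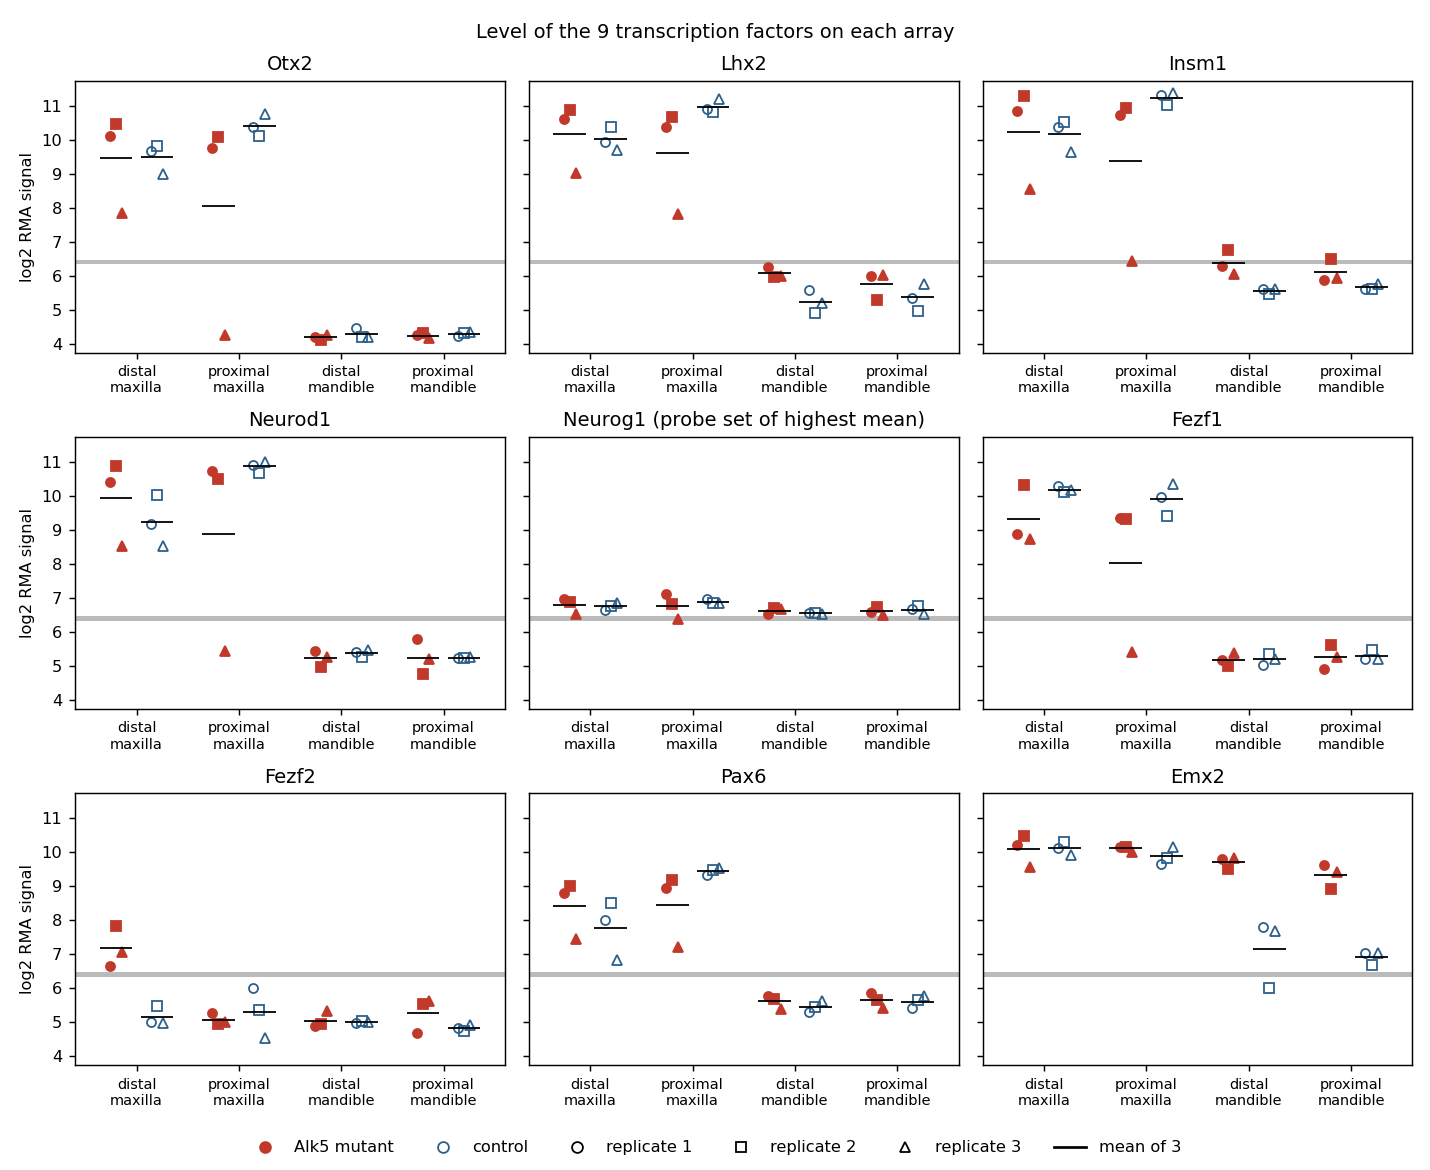
Log2 RMA level of each of the 9 genes on every array, with mutant arrays (filled) left of control arrays (open) in each region, the marker shape giving the replicate, the black line the mean of 3 arrays and the grey band the filter level of 6.33 to 6.47. Otx2, Lhx2, Insm1, Neurod1, Fezf1 and Pax6 are high in the maxilla and near or under the band in the mandible, Emx2 in the mandible lies at 8.90 to 9.83 in mutants and at 6.0 to 7.78 in controls, and Fezf2 is above the band in the mutant distal maxilla only.

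Counted over the 9 genes, the maxilla was higher for 7 in the mutant distal end (6 without Fezf2), 6 in the mutant proximal end, 7 in the control distal end and 7 in the control proximal end, and no gene was lower. Of all genes tested, 6.78%, 4.33%, 9.46% and 15.2% were called higher in the same comparisons. Otx2, Lhx2, Neurod1, Fezf1 and Pax6 were above the filter on 0 of the 12 mandible arrays and Insm1 on 2. Maxilla arrays thus admitted these 6 genes to the test, and their counts are not read against that share. A fit to all 18193 genes without the filter also gave 27 calls of the 9 genes over these 4 comparisons. In the mutant distal end the 7 differences ran from 2.13 ± 0.31 for Fezf2 to 5.28 ± 0.95 for Otx2 (limma adjusted p = 8.29e-05 to 0.00401, and 0.000209 for Fezf2 without the filter). The median difference of the 9 genes in the control proximal end was 4.61, against -0.02 over all genes tested. In the mutant proximal end the differences were 3.80 for Otx2, 3.85 for Lhx2, 3.27 for Insm1, 3.65 for Neurod1, 2.75 for Fezf1 and 2.80 for Pax6 (limma adjusted p = 0.00037 to 0.023). Without the 2 arrays they were 3.42 for Pax6 and 4.06 to 5.68 for the others. All 6 calls were lost when only the arrays of that comparison entered the fit, with limma adjusted p of 0.0642 to 0.312. Leaving out single arrays of the mutant proximal maxilla or mandible also ended the call of Otx2 in 5 cases, of Insm1 and Neurod1 in 4 each and of Fezf1 in 3, whereas the calls of Lhx2 and Pax6 were kept in every case. The 7 genes called were not identical across comparisons: Emx2 completed the list in both control ends and Fezf2 in the mutant distal end.

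**Figure D2:**
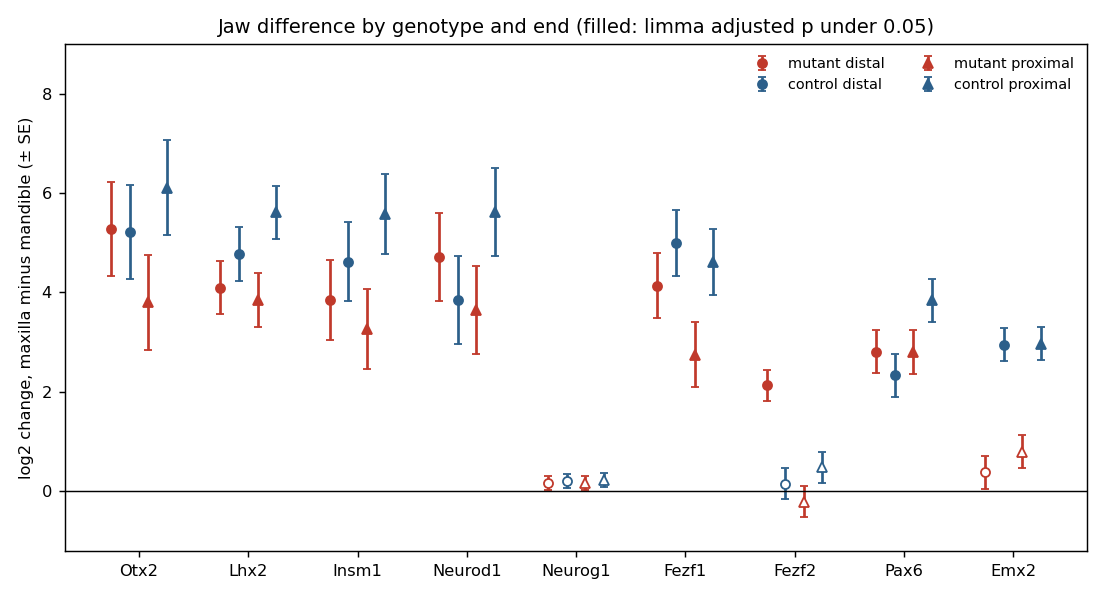
Maxilla minus mandible, in log2 units with the standard error of the fit, for each of the 9 genes in the distal and proximal end of mutants and controls, with filled points for a limma adjusted p under 0.05. The 6 genes of the shared pattern lie above 2 in every comparison, Emx2 lies near 3 in controls and at 0.38 and 0.80 in mutants, and Neurog1 by its higher probe set lies near 0.

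Within the maxilla, the ends differed for few of the genes. In the control maxilla Pax6 was 1.67 ± 0.44 lower in the distal than in the proximal end, a 3.17-fold difference (limma adjusted p = 0.019), and it was the only one of the 9 called, where 5.99% of all genes were called lower in the distal end. That call ended without control distal maxilla replicate 3 or without control proximal maxilla replicate 2, with limma adjusted p up to 0.157. Otx2, Lhx2, Insm1 and Neurod1 were also lower on every distal than on every proximal control array, by 0.91, 0.96, 1.06 and 1.63, and did not pass the test. With Pax6 they make 5 of 9 genes with no overlap of the ends, against 25.4% of all genes. In the fit without the 2 mutant arrays the spread shared by all groups was smaller, and these 4 joined Pax6 among the genes called lower, with limma adjusted p of 0.000275 to 0.0078 over the 5, against 8.54% of all genes. In the mutant maxilla Fezf2 was 2.12 ± 0.31 higher in the distal end (limma adjusted p = 0.0029, and 0.00237 without the filter), and the call was lost with only the arrays compared (limma adjusted p = 0.116). Of the other 8 genes 0 were called by limma or had an unadjusted p under 0.05 there, where 0.811% of all genes were called higher. No gene of the 9 was called between the ends of the mandible in mutants or controls, where 9.02% and 5.45% of all genes were called by limma, and 0 of the 9 had an unadjusted p under 0.05 in either genotype.

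Mutant and control maxillae were compared next. In the distal maxilla, of the 8 genes other than Fezf2, 0 passed the test by limma or had an unadjusted p under 0.05, where 2.96% of all genes were called. The 3 mutant arrays of Fezf2 (6.64, 7.83 and 7.05), which admitted it to the test, all lay above its 3 control arrays (5.01, 5.48 and 4.97). The difference was 2.02 ± 0.31 (limma adjusted p = 0.00222, and 0.00217 without the filter), and the control level under the filter makes this a lower limit. The call was kept in all alternatives that tested Fezf2 except the fit to only the 6 arrays compared, where the limma adjusted p was 0.0845. The differences of the other genes ran from -0.87 ± 0.66 for Fezf1 to 0.70 ± 0.89 for Neurod1 and did not pass, and their mutant and control arrays overlapped. For Fezf1, mutant replicates 1 and 3 lay below all controls and replicate 2 above them. The median over the 9 genes was 0.04, and over all genes tested it was 0.041.

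Mutant replicate 3 was the lowest mutant array of the distal maxilla for Otx2, Lhx2, Insm1, Neurod1, Pax6, Fezf1 and Emx2, and the distal result changed without it. With replicate 3 of both ends left out, Neurod1 was 1.41 ± 0.31 higher in the mutant distal maxilla, a 2.65-fold difference (limma adjusted p = 0.0124). Pax6 was 1.13 ± 0.30 higher (2.19-fold, limma adjusted p = 0.0286), Insm1 0.87 ± 0.24 higher (1.83-fold, limma adjusted p = 0.0339) and Otx2 0.79 ± 0.20 higher (1.73-fold, limma adjusted p = 0.0243). These are 4 of the 8 genes other than Fezf2, against 4.47% of all genes called higher, and Fezf2 was 2.08 ± 0.36 higher. Lhx2 was 0.74 higher and did not pass (limma adjusted p = 0.0861), and Fezf1 was 0.58 lower and did not pass (limma adjusted p = 0.253). These values rest on 2 mutant arrays, and the standard errors are small because the spread is shared with the other groups. Control distal maxilla replicate 3 was kept. It was the lowest control distal array for Otx2, Lhx2, Insm1, Neurod1 and Pax6, with a mean of 8.98 over the 6 shared-pattern genes. The other control distal arrays had 9.57 and 9.89. No fit left out replicate 3 of both genotypes, so how much of these differences rests on that choice was not tested. The other probe set of Neurog1 was 0.69 higher with all arrays and did not pass the test (limma adjusted p = 0.689), and its mean was 1.66 higher without replicate 3.

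In the proximal maxilla none of the 9 genes passed the test by limma, against 10.5% of all genes, and 6 had an unadjusted p under 0.05 (limma adjusted p of 0.0739 to 0.159 for those 6). The mutant means were lower by 2.37 ± 0.95 for Otx2, 1.98 ± 0.89 for Neurod1, 1.88 ± 0.66 for Fezf1, 1.87 ± 0.80 for Insm1, 1.36 ± 0.54 for Lhx2 and 1.0 ± 0.44 for Pax6. Replicate 3 carried most of each difference: without it they were 0.48, 0.25, 0.58, 0.40, 0.46 and 0.38, still lower and still not called. For Otx2, Lhx2, Insm1, Fezf1 and Pax6 all 3 mutant arrays lay below all 3 control arrays, which is 5 of 9 genes, and the groups lay apart in either direction for 28.8% of all genes. Emx2 (0.23 ± 0.33 higher, limma adjusted p = 0.719) and Fezf2 (0.24 lower) did not pass either.

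**Figure D3:**
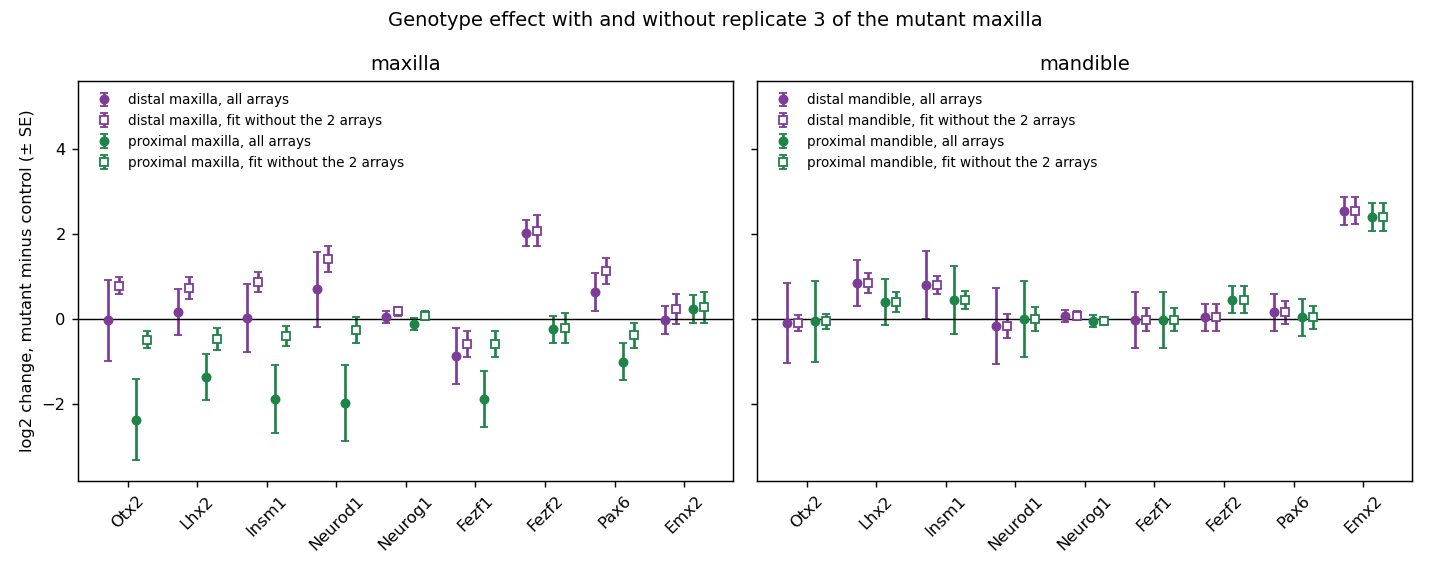
Mutant minus control, in log2 units with the standard error of the fit, for the 9 genes in the distal and proximal end of the maxilla (one panel) and of the mandible (the other), with filled circles for all 24 arrays and open squares for the fit without the 2 mutant maxilla arrays of replicate 3. Emx2 in the mandible stands at 2.55 and 2.40, and the proximal maxillary values of Otx2, Neurod1, Insm1 and Fezf1 move towards 0 without replicate 3.

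The 2 mutant arrays of replicate 3 were also low in other olfactory and neuronal genes. The mean level of Otx2, Lhx2, Insm1, Neurod1, Fezf1 and Pax6 was 9.98, 10.11 and 6.09 in the mutant proximal maxilla and 10.46, 10.25 and 10.70 in the control proximal maxilla. It was 9.94, 10.47 and 8.34 in the mutant distal maxilla and 9.57, 9.89 and 8.98 in the control distal maxilla. On mutant proximal maxilla replicate 3, 3 of these 6 genes were still above the filter, and Sp8, a placode factor, was at 4.16 against 8.60 and 8.95 on the other mutant proximal arrays. Hand2 was at 6.90 on that array, within the range of the maxilla. A list of 16 neuronal genes averaged 10.62, 10.17 and 9.31 in the mutant proximal maxilla and 11.12, 10.39 and 10.06 in the control proximal maxilla. A list of 13 genes of nasal respiratory and supporting epithelium averaged 7.75, 8.09 and 6.55 in the mutant proximal maxilla and 8.90, 8.33 and 10.06 in the control proximal maxilla, against 6.22 to 6.40 in the mandible. How far the share of nasal tissue in each piece set the levels of the 9 genes was not tested.

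**Figure D4:**
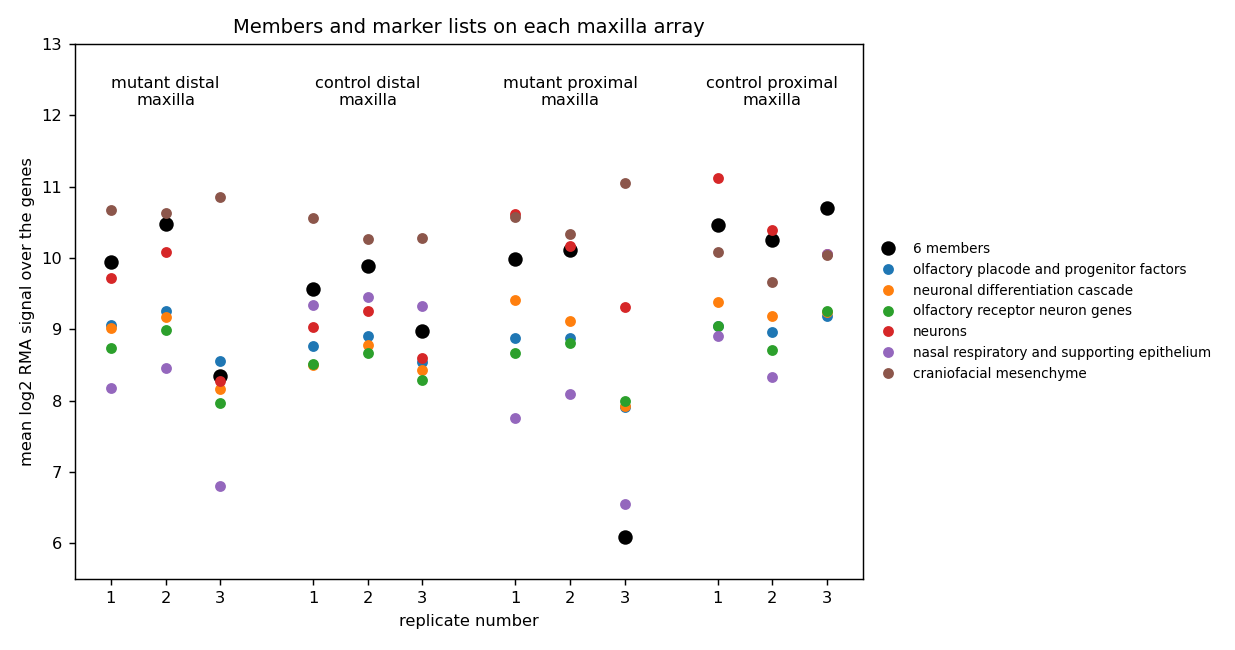
Mean log2 level, on each of the 12 maxilla arrays, of the 6 genes Otx2, Lhx2, Insm1, Neurod1, Fezf1 and Pax6 and of 6 marker lists, with mutant arrays left of control arrays in each end. Mutant proximal maxilla replicate 3 has the lowest mean of the 6 genes (6.09) and lies below the other mutant proximal arrays in the olfactory, neuronal and nasal lists.

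Emx2 differed from the other 8 genes in the mandible. Emx2 in the maxilla lay at 10.22, 10.46 and 9.56 in the mutant distal end and 10.11, 10.30 and 9.90 in the control distal end, and at 10.16, 10.15 and 10.01 in the mutant proximal end and 9.66, 9.81 and 10.16 in the control proximal end. It was the one gene with a level above 9 on all maxilla arrays, mutant proximal maxilla replicate 3 included. In the distal mandible it had 9.78, 9.51 and 9.83 in mutants and 7.78, 6.0 and 7.69 in controls. In the proximal mandible it had 9.62, 8.90 and 9.41 in mutants and 7.02, 6.68 and 7.03 in controls. All 6 mutant mandible arrays thus lay above all 6 control mandible arrays, and 5 of the control arrays were above the filter.

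Emx2 rose by 2.55 ± 0.33 log2 units in the mutant distal mandible, 5.86-fold (limma adjusted p = 5.92e-05), and by 2.40 ± 0.33 in the mutant proximal mandible, 5.27-fold (limma adjusted p = 5.3e-05). It was the only one of the 9 genes called in either end, where 8.02% and 9.56% of all genes were called higher in the distal and proximal end. As the mean of the 4 regions Emx2 was 1.29 ± 0.16 higher, 2.44-fold (limma adjusted p = 6.1e-06), where 25.2% of all genes were higher. Fezf2, also called, was 0.57 ± 0.16 higher (limma adjusted p = 0.00675, and 0.00714 without the filter). The regions of 1 genotype and replicate number shared their pattern of Xist and Y-linked genes, yet this fit took their arrays as independent. With regions averaged first, all-gene calls fell from 5655 to as few as 2114. Across the alternatives, which include that averaging, the limma adjusted p of Emx2 was at most 0.00511. Emx2 kept its call in the distal mandible, the proximal mandible and the mean under every alternative and with any single array left out, with a range of 1.97 to 2.86, 2.24 to 2.60 and 1.14 to 1.37. The mean of Fezf2 lost its call with the replicate number as a random block (limma adjusted p = 0.0537), with regions averaged first and the replicate number as a block (limma adjusted p = 0.0519), with the level of Xist as a covariate (limma adjusted p = 0.0955) and when a log2 change of at least 1 was required.

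In order of group mean, Emx2 ran from the mutant proximal maxilla (10.11 ± 0.08, SD, n = 3), control distal maxilla (10.10 ± 0.20), mutant distal maxilla (10.08 ± 0.47) and control proximal maxilla (9.88 ± 0.26) through the mutant distal mandible (9.71 ± 0.17) and mutant proximal mandible (9.31 ± 0.37) to the control distal mandible (7.16 ± 1.0) and control proximal mandible (6.91 ± 0.20). The arrays of neighbouring groups in this order overlapped, except between the mutant proximal and the control distal mandible. Emx2 was higher in the maxilla than in the mandible by 0.38 in the mutant distal end and 0.80 in the mutant proximal end, neither of which passed the test (limma adjusted p = 0.536 and 0.176). In the mutant proximal end the jaws still did not overlap, with 10.01 to 10.16 in the maxilla and 8.90 to 9.62 in the mandible. Without the 2 mutant maxilla arrays the differences were 0.64 and 0.85 and did not pass (limma adjusted p = 0.275 and 0.148). In controls the same differences were 2.95 ± 0.33 in the distal end, 7.72-fold (limma adjusted p = 5.73e-06), and 2.97 ± 0.33 in the proximal end, 7.83-fold (limma adjusted p = 4.75e-06). The genotype effect on Emx2 in the maxilla minus that in the mandible was -2.57 ± 0.47 in the distal end (limma adjusted p = 0.00409) and -2.17 ± 0.47 in the proximal end (limma adjusted p = 0.0313), by a test of the interaction that called 3.31% and 0.975% of all genes. Without the 2 mutant maxilla arrays these effects were -2.31 and -2.12 (limma adjusted p = 0.0086 and 0.0428). The proximal call was lost in 8 of the 24 fits that left out 1 array (limma adjusted p up to 0.097) and with array weights (limma adjusted p = 0.105).

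For Fezf2, the genotype effect in the distal maxilla exceeded that in the distal mandible by 1.98 ± 0.44 (limma adjusted p = 0.0191, and 0.0185 without the filter) and that in the proximal maxilla by 2.26 ± 0.44 (limma adjusted p = 0.039, and 0.0341 without the filter). The first call was lost without control distal maxilla replicate 3 or mutant distal mandible replicate 2 (limma adjusted p up to 0.0582). The second was lost in 14 of the 24 fits that left out 1 array (limma adjusted p up to 0.138) and with only the arrays compared (limma adjusted p = 0.363). Both rest on the group that admitted Fezf2 to the test. Of the other 8 genes 0 were called by limma and 2 had an unadjusted p under 0.05 in the second comparison with all arrays, where 0.201% of all genes were called. Without mutant maxilla replicate 3, Neurod1 joined in the first comparison (1.57 ± 0.42, limma adjusted p = 0.0367, against 4.84% of all genes). Otx2 joined in the second (1.28 ± 0.29, limma adjusted p = 0.0328, against 1.53% of all genes). Control distal maxilla replicate 3, the lowest control distal array for both genes, was kept in that fit. No interaction was called by limma between the ends of the mandible for any of the 9 genes, 0 of which had an unadjusted p under 0.05, against 0.108% of all genes called.

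Among the other genes, Lhx2 and Insm1 had mutant mandible arrays above the controls, at levels near background. Lhx2 had 6.26, 5.96 and 5.99 in the mutant distal mandible and 5.59, 4.89 and 5.18 in the control distal mandible, a difference of 0.85 ± 0.54 (limma adjusted p = 0.313). Insm1 had 6.28, 6.76 and 6.04 in the mutant distal mandible and 5.62, 5.45 and 5.61 in the control distal mandible, a difference of 0.80 ± 0.80 (limma adjusted p = 0.556). The groups lay apart for both, as they did for 42.4% of all genes in the distal mandible. Without the 2 mutant maxilla arrays the shared spread was smaller and both passed the test at the same difference, with standard errors of 0.23 and 0.21 (limma adjusted p = 0.0158 and 0.0138), where 8.92% of all genes were called higher. The mean level of Lhx2 there lay under the filter in both genotypes. That of Insm1 lay under it in controls (5.56) and within the filter range of 6.33 to 6.47 in mutants (6.36). The differences of Otx2, Neurod1, Neurog1, Fezf1, Fezf2 and Pax6 in the distal mandible ran from -0.16 to 0.16 and did not pass.

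Genes that work with these factors were followed as lists, none of which holds any of the 9. In the control proximal end, where 15.2% of all genes were higher in the maxilla and 11.4% lower, the maxilla was higher than the mandible for 7 of 9 tested placode and progenitor genes and lower for 1, with a median of 1.09. It was higher for 11 of 14 genes of the neuronal differentiation cascade (median 1.42), for 8 of 12 genes of olfactory receptor neurons with 1 lower (1.44), for 13 of 16 neuronal genes (2.75) and for 11 of 13 nasal epithelial genes (2.57). Only genes past the filter were counted: 9 of 10 placode, 14 of 21 cascade and 12 of 14 receptor neuron genes on the array. Some, such as Sp8 at 4.21 to 4.52 in the mandible groups, were admitted by maxilla arrays. These list counts are therefore not read against the 15.2%. Examples are Nhlh2, a bHLH factor of immature neurons, at 6.13 ± 0.82 (limma adjusted p = 2.71e-05), Sp8 at 5.12 ± 0.79 (limma adjusted p = 9.94e-05), the progenitor factor Sox2 at 2.40 ± 0.28 and Bpifa1, a secreted product of nasal epithelium, at 7.57 ± 0.58. Mandibular patterning genes ran the other way, with 8 of 11 lower and none higher, Hand2 by 2.64 ± 0.36 among them. The forebrain list had 6 of 12 genes on the array tested, with 2 higher and 2 lower. Its genes Tbr1, Neurod6, Gad1, Gad2 and Nkx2-1, picked after their values were seen, lay under the filter in all groups. Whether the pieces held forebrain tissue was not tested. The eye list had 0 of 6 called by limma and 2 with an unadjusted p under 0.05, and the glial list had 5 of 6 higher.

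Between genotypes, part of the nasal epithelial list was lower in the mutant maxilla. In the distal end 6 of its 13 genes were called lower and none higher (median -1.45, against 0.041 over all genes tested), where 1.12% of all genes were lower. They included Bpifa1 (4.08 ± 0.58 lower, limma adjusted p = 0.00148), Aldh1a1, a retinoic acid enzyme of nasal epithelium (3.42 ± 0.47 lower, limma adjusted p = 0.00148), and the ciliated cell genes Deup1 (3.15 ± 0.47 lower, limma adjusted p = 0.00189) and Foxj1 (2.30 ± 0.41 lower, limma adjusted p = 0.00674). In the mutant proximal maxilla 7 of 13 were lower (median -1.68), against 4.79% of all genes. Without replicate 3 the counts were 6 lower and 1 higher in the distal end and 5 lower in the proximal end, against 3.51% and 3.01% of all genes lower. The placode, cascade, receptor neuron and neuron lists had 0 calls by limma in the mutant distal maxilla with all arrays, and 0, 2, 1 and 1 genes with an unadjusted p under 0.05. Without mutant replicate 3 they had 3 of 9, 7 of 14, 1 of 12 and 3 of 16 genes higher and none lower. Control replicate 3 was kept, and 4.47% of all genes were higher. In the mutant proximal maxilla the placode list had 1 lower (Eya1 by 0.53, limma adjusted p = 0.0495), the cascade and neuron lists had 0 calls by limma and 3 genes each with an unadjusted p under 0.05, and the receptor neuron list had 1 higher (Kirrel3) and 2 lower (Gnal and Gnao1).

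In the mutant mandible, where Emx2 rose, the mean of the neuronal list was 7.47 to 8.11 on mutant arrays and 7.47 to 8.17 on control arrays. Of its 16 genes 1 was lower in the distal end (Scg2 by 1.53) and 0 were called by limma, or had an unadjusted p under 0.05, in the proximal end. The placode list had 1 of 9 genes higher in each end, and 8.02% and 9.56% of all genes were higher in the distal and proximal end, so its count is near that share. The gene was Lhx9, a LIM homeobox relative of Lhx2, with 7.60, 6.37 and 7.26 in the mutant distal mandible and 5.47, 5.05 and 5.26 in the control distal mandible. The groups lay apart, by 1.82 ± 0.48 (limma adjusted p = 0.0129). In the proximal end Lhx9 had 5.49, 8.24 and 5.37 in mutants and 4.74, 5.19 and 4.94 in controls, where mutant replicate 2 was far above the rest and the difference was 1.41 ± 0.48 (limma adjusted p = 0.0419). The cascade list had 2 of 14 higher in each end, also near those shares: Ebf1 and Ebf3, helix-loop-helix factors of both olfactory neurons and mesenchyme, in the distal end (0.70 ± 0.17 and 1.0 ± 0.21), and Ebf1 and Isl1 in the proximal end (0.65 and 1.39 ± 0.40). Among markers of other cells, craniofacial mesenchyme had 4 of 13 genes higher in each end, against the same 8.02% and 9.56%, with a list mean of 10.68 to 10.98 on mutant and 10.25 to 10.45 on control mandible arrays. Bone genes were lower for 4 of 4 in the distal and 3 of 4 in the proximal end, where 7.98% and 10.4% of all genes were lower, with means of 10.06 to 11.88 on mutant and 11.92 to 12.73 on control mandible arrays. Their part in the level of Emx2 was not tested.

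Genes were ranked by Pearson's r with the mean z-score of the 8 genes other than Emx2 over the 24 arrays. These arrays include the region differences and the 2 arrays of replicate 3. The mean includes Fezf2 and the nearly flat probe set of Neurog1, which stand outside the shared maxillary pattern. Sp8 and Six3os1 came first (r = 0.986 each), followed by Dmrt3 (0.984), Cldn9 (0.979), Atp8b4 (0.978) and Nuak2 (0.976). Sp8, for example, averaged 8.82 in the mutant distal maxilla, 7.24 in the mutant proximal maxilla, 8.32 in the control distal maxilla, 9.32 in the control proximal maxilla and 4.21 to 4.52 in the mandible groups. Over the 12 mandible arrays the genes most like Emx2 were Pgbd5 (r = 0.985), Trim71 (0.964), Bloc1s6 (0.957), Cebpa (0.954), Zkscan4 (0.953) and Rest (0.949). Their levels differed less than that of Emx2: Pgbd5 averaged 7.87 and 7.83 in the mutant distal and proximal mandible, against 7.25 and 7.31 in controls, and Cebpa 8.96 and 8.95, against 7.99 and 7.98. These correlations describe arrays in 2 genotypes and carry no p-value.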

How the data were processed

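Total RNA (5 µg, column kit) was made into biotin-labelled cRNA for 1-colour arrays, per the labels' protocols. The deposited values are log2 signals made by the authors with RMA, per the submitters' processing notes, which give no version. The base was read from the range of 3.29 to 14.86. Of 45101 probe sets, 34945 carried 1 symbol, 932 several and 9160 none, and 64 were controls. RefSeq GRCm38.p6 matched 34741 of the named ones by identifier and changed 0 symbols. RMA sets the arrays to 1 distribution, so a level is relative to its array, and precision is limited by 3 arrays a group.

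The brightest probe set stood for a gene. Genes over the 40th array percentile on 3 or more arrays were tested. limma 3.58.1 (R 4.3.3, eBayes with a mean-variance trend) fitted 8 group means over the 24 arrays and gave 17 comparisons, two-sided, with p-values adjusted by Benjamini-Hochberg across 13942 genes and calls at an adjusted p under 0.05. The script was tested on simulated data. Figures were drawn with matplotlib 3.10.9, and tables were made with pandas 2.3.3 and numpy 2.4.6 in Python 3.11.15.

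The 9 genes, the 12 lists and the comparisons were chosen with earlier results of these data known, so no count over them is independent evidence. The bone list and the look at the other Neurog1 probe set were added after the values were seen. All 9 genes are described, and list members are named from the 4 with the largest moderated statistic in a comparison, except the forebrain markers, which were chosen after their values were seen. Likeness was ranked over all tested genes, and the first 6 are given.

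Whether replicate numbers pair arrays was checked by correlating deviations from group means across genes. Between mutant and control, at least 1 of the 3 values of r was under 0.1 in every region (0.02, 0.09 and 0.19 in the distal mandible, 0.05, 0.23 and 0.37 in the proximal mandible, 0.09, 0.37 and 0.37 in the distal maxilla, and 0.17, -0.17 and -0.16 in the proximal maxilla), so genotypes were not paired. Within mutants every r was over 0.1, at 0.60 to 0.74 between the ends of the maxilla. Alternatives were replicate blocks, quantile normalization, array weights, other filters, probe set means, Xist as a covariate and fits without single arrays or to only the arrays compared.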

Additional observations from a re-analysis of the deposited data

Results flagged for a closer look

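The effect of genotype differed between regions for Emx2 by a test of the difference itself, the interaction in the limma fit over all 24 arrays. For Emx2 the effect in the distal maxilla minus that in the distal mandible was -2.57 ± 0.47 (limma adjusted p = 0.00409), with a genotype effect of -0.02 in the maxilla and 2.55 in the mandible. In the proximal end it was -2.17 ± 0.47 (limma adjusted p = 0.0313), with effects of 0.23 and 2.40. Of all genes tested, 3.31% and 0.975% were called in these comparisons. The proximal call ended in 8 of the 24 fits that left out 1 array (highest limma adjusted p = 0.097) and with array weights (limma adjusted p = 0.105).

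For Fezf2 the effect in the distal maxilla minus that in the distal mandible was 1.98 ± 0.44 (limma adjusted p = 0.0191). It was lost without control distal maxilla replicate 3 or without mutant distal mandible replicate 2 (limma adjusted p up to 0.0582). The effect in the distal minus the proximal maxilla was 2.26 ± 0.44 (limma adjusted p = 0.039). It was lost in 14 of the 24 fits that left out 1 array (limma adjusted p up to 0.138) and with only the arrays compared (limma adjusted p = 0.363). Fezf2 was under the filter in every group but the mutant distal maxilla, so the effects subtracted lie wholly at background. The size of both differences is therefore uncertain. The group compared is also the one that admitted Fezf2 to the test. In a fit to all genes without the filter the limma adjusted p was 0.0185 and 0.0341. With groups of 3 arrays, no single array was tested as an outlier.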

How the results depend on the processing

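Over the 4 regions, 3 calls of the 9 genes between genotypes became 9 without replicate 3 of both ends of the mutant maxilla, and 3 to 7 when any single array was left out. As the mean of the regions, 2 calls became 4 without those arrays, 1 at the 60th percentile filter, with a random replicate block, with Xist as a covariate, at a log2 change of at least 1 and with regions averaged first under the replicate block, and 2 to 3 with single arrays left out. The calls on differences of the genotype effect went to 2 of 4 at the 60th percentile filter, where Fezf2 was not tested, and to 2 to 4 with single arrays left out. Between the ends, 2 calls became 1 at the 60th percentile filter, 4 with only the arrays compared, 6 without replicate 3 of the mutant maxilla, and 1 to 3 with single arrays left out. Between the jaws, 27 calls ranged from 23 to 28 with single arrays left out, 21 with only the arrays compared and 31 with the other probe set of Neurog1. A fixed replicate block gave 3, 2, 4, 27 and 2 calls, as without it, and a random replicate block ended only the mean call of Fezf2.

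Signs turned only for values that were not called. Otx2 in the distal maxilla (-0.03) was 0.28 with array weights, 0.79 without replicate 3 and -0.52 to 0.79 with single arrays left out. Insm1 there (0.03) was -0.03 after quantile normalization, -0.20 as the mean of probe sets, -0.07 with Xist and -0.49 to 0.87 with single arrays left out. The mean of Lhx2 was -0.01 after quantile normalization, -0.05 with Xist and -0.12 to 0.24 with single arrays left out, and that of Insm1 0.16 with array weights, 0.43 without replicate 3 and -0.35 to 0.22. Neurog1 between the mutant proximal jaws was -0.01 to 0.37. The causes were not tested.

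Counts over all genes moved more. Mutant against control, the distal maxilla had 413 genes called, 23 with only the arrays compared and 1194 with array weights, and 47 to 750 with single arrays left out. The proximal maxilla had 1470, 320 with only the arrays compared and 2397 with a fixed replicate block. The distal mandible had 2231 and 4268 with array weights, and the mean had 5655 and 2114 with regions averaged first. The mutant proximal jaws had 776, 83 with only the arrays compared and 1653 without replicate 3. With 3 arrays per group and levels near background in the mandible, sizes there are least certain.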

Other observations

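Of 7 tested genes of the trigeminal and cranial ganglia, 1 was higher in the mutant distal maxilla with all arrays, against 1.84% of all genes: Tac1, a neuropeptide precursor, by 1.89 ± 0.30 (limma adjusted p = 0.0023) and by 1.96 ± 0.32 without replicate 3. The pigment genes of the eye list, which melanocytes also express, were lower in the mutant distal maxilla without replicate 3: Dct by 2.26 ± 0.44, Pmel by 1.75 ± 0.38 and Tyr by 1.53 ± 0.22 (limma adjusted p = 0.00592, 0.0113 and 0.000835). With all arrays they were 1.51, 1.10 and 1.02 lower and did not pass. Oral and skin epithelial genes were higher for 6 of 11 in the mutant proximal maxilla, 5 of 11 in the mutant proximal mandible, 2 of 11 in the mutant distal mandible and 0 of 11 by limma in the mutant distal maxilla, where 3 had an unadjusted p under 0.05. Of all genes tested, 5.75%, 9.56%, 8.02% and 1.84% were higher in those comparisons. Craniofacial mesenchyme genes were higher for 6 of 13 in the mutant proximal maxilla and for 1 of 13 in the mutant distal maxilla, against the same 5.75% and 1.84%.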
